A study of Bos taurus with 6 samples.

Results

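Ribosomal RNA (rRNA), small nucleolar RNA (snoRNA) and small nuclear RNA (snRNA) fragments of fetal bovine serum (FBS) are described here. They are 3 of the 15 RNA classes measured in the human mapping and 3 of the 14 measured in the mouse mapping, and were chosen by the names of their classes. FBS is the serum of unborn calves, used as a supplement of cell culture media. FBS (40 mL per spin) was ultracentrifuged (UC) at 100000 g for 24 h, and RNA of 3 pellets and 3 supernatants was sequenced. The pelleted fraction is enriched in extracellular vesicles (EVs), while lighter ribonucleoprotein complexes (RNPs) stay in the supernatant, of which 20 mL was concentrated on 3 kDa filters. No treatment or genotype separates the libraries. The concentration on filters was done for supernatants alone, so fraction and handling cannot be told apart. The serum is described as of 3 batches, which the labels do not tie to replicate numbers. RNA (60 ng) was treated with T4-PNK, a kinase that makes fragments with other ends than those of miRNAs ligatable, and reads of 50 nt were taken from inserts of 15 to 65 nt. Bovine reads were mapped to the human genome (hg19) and to the mouse genome (mm10), which asks how much FBS RNA could be mistaken for RNA of cultured human or mouse cells.

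The 3 classes work in the making of proteins and of mature mRNA. rRNA forms the core of the ribosome, and most of it is cut from a long precursor in the nucleolus. snoRNAs stay mostly in the nucleolus, where C/D box snoRNAs guide the methylation and H/ACA box snoRNAs the pseudouridylation of rRNA. The snRNAs U1, U2, U4, U5 and U6 form the spliceosome in the nucleus, and small Cajal body RNAs, relatives of the snoRNAs, guide their modification. All 3 are long-lived RNAs held in protein complexes, and those of serum are what cells have shed or released. The cattle assembly ARS-UCD2.0 lists 16 genes of the type rRNA, 636 of the type snoRNA and 975 of the type snRNA. The tables hold 1 sum per class and library, so single rRNAs, snoRNAs and snRNAs were not analysed here, and the classes could not be checked against defining genes. No sequence is printed, since a sum over a class has none.

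Levels are in RPM, the reads of a class per 1000000 mapped reads of the library. They are shares of a fixed total, so the rise of an abundant class pushes the rest down. Mapped reads, estimated from the value that 1 miRNA read takes, were 867426 (pellet 3) to 6660802 (pellet 1) for the human genome. The mouse mapping took 4.47% (pellet 2) to 12.8% (supernatant 2) more reads of each library. At these depths the 95% Wilson interval of a class share in the human mapping was at most ± 3.32% of its value, reached by snRNA in pellet 3. Such intervals cover counting error only, and the SD between libraries of a fraction was larger for each of the 3 classes. The amount of RNA per mL was not analysed here, so a larger share and more RNA cannot be told apart.

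Together, the 3 classes of the human mapping took more of the pellet than of the supernatant reads. Their sum was 18.3%, 15.0% and 17.2% of mapped reads in pellets 1, 2 and 3. In supernatants 1, 2 and 3 it was 10.8%, 11.7% and 11.03%. The fractions did not overlap (exact permutation test, two-sided, p = 0.10, the smallest p that 3 against 3 libraries can give). The make-up of this sum also did not overlap between the fractions for rRNA and snoRNA (exact permutation p = 0.10 each). These 2 shares nearly mirror each other, since snRNA is a small part, and count as 1 pattern. Such separation was common, as the levels of 9 of 15 human classes (60%) did not overlap either. rRNA held 60.6%, 61.3% and 79.4% of it in pellets 1, 2 and 3, and 40.0%, 28.0% and 32.2% in supernatants 1, 2 and 3. In the human mapping snoRNA was thus the larger partner in every supernatant and rRNA in every pellet. snRNA held between 2.32% (pellet 3) and 5.49% (supernatant 1) of the sum. In the mouse mapping the 3 classes took 18.4%, 13.1% and 19.9% of reads in pellets 1, 2 and 3 and 13.7%, 13.5% and 12.9% in supernatants 1, 2 and 3. Pellet 2 lay among these supernatants, so the fractions overlapped (exact permutation p = 0.30). In the mouse mapping rRNA was the larger partner in every library. It held 85.3% (pellet 2) to 93.8% (pellet 3) of the sum in pellets and 81.2% (supernatant 2) to 84.5% (supernatant 1) in supernatants. snoRNA held 3.75% (pellet 3) to 9.99% (pellet 2) and 10.2% (supernatant 1) to 13.6% (supernatant 2). Neither share overlapped between fractions (exact permutation p = 0.10 each), as for 7 of 14 mouse class levels (50%).

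Of the 3 classes, rRNA alone passed the test between the fractions in the human mapping. By the human genome they stood at 110679, 91728 and 136896 RPM in pellets 1, 2 and 3. The values of supernatants 1, 2 and 3 were 43337, 32762 and 35562 RPM. The lowest pellet lay above the highest supernatant. The fractions were apart, in either direction, in 9 of the 15 classes (60%). By level rRNA had rank 3 or 4 among the classes of a pellet and rank 7 in each supernatant. The pellet to supernatant fold of same-numbered libraries was 2.55, 2.80 and 3.85. rRNA was higher in the pellets by a log2 fold change of 1.59 (standard error 0.19, 95% interval 1.11 to 2.07, limma on log2(RPM + 1), adjusted p = 0.00271 over the 15 classes). It was 1 of 3 classes called higher in the pellets, 20% of those tested, and 1 class (6.67%) was called lower. Of the 3 classes described here 1 passed, against 4 of 15 (26.7%) in all. Under the 13 alternatives tried its log2 fold change ran from 1.19 to 1.74 and passed in each.

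**Figure D1:**
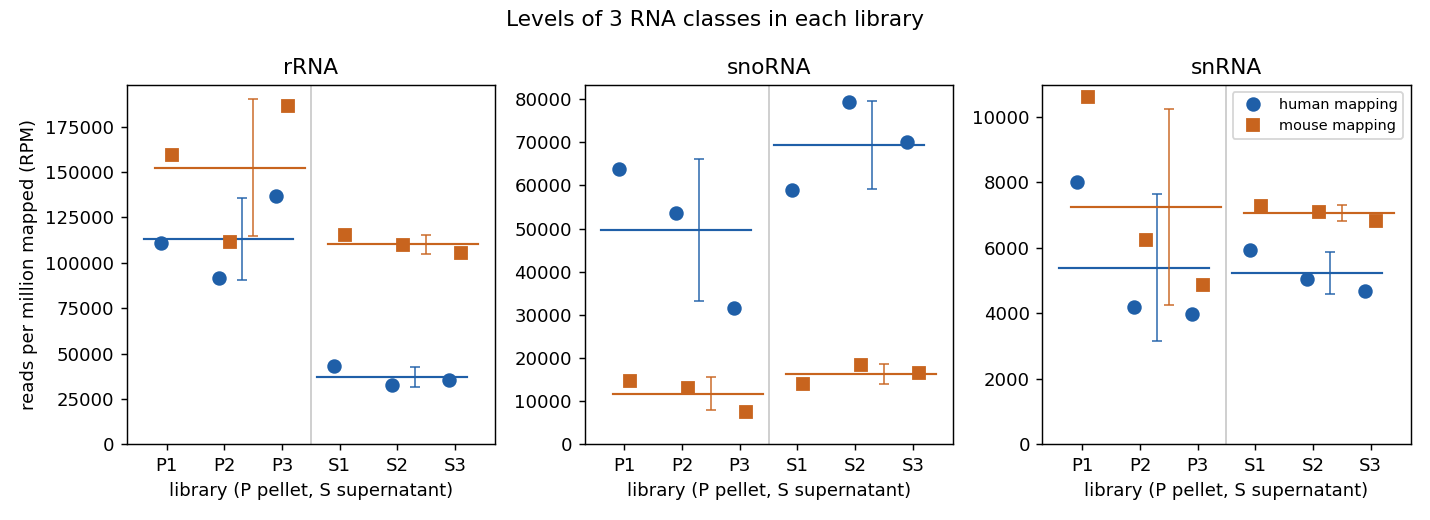
RPM (vertical axis, from 0) of rRNA, snoRNA and snRNA in each library (P, pellet, S, supernatant), with circles for the human and squares for the mouse mapping, lines for fraction means and bars for the SD (n = 3). In the human mapping the pellets hold more rRNA than any supernatant, while in the mouse mapping pellet 2, at 111693 RPM, lies below supernatant 1, at 115465 RPM.

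snoRNA fragments had the higher mean in the supernatants, but the fractions overlapped. By the human genome pellets 1, 2 and 3 held 63867, 53694 and 31513 RPM. Supernatants 1, 2 and 3 held 58947, 79358 and 70101 RPM. Pellet 1 was thus above supernatant 1, and pellet 3 was the lowest library. The same-numbered folds of 1.08, 0.677 and 0.450 point in different directions. The log2 fold change of -0.53 (standard error 0.29, 95% interval -1.27 to 0.20) did not pass (limma, adjusted p = 0.183). Without pellet 3 it was -0.24 (adjusted p = 0.227). After centring each library on the mean of its log class values, which moves the median class from -0.11 to -0.51, snoRNA passed as lower in the pellets (-0.94, adjusted p = 0.0125). That centring gives rare classes the weight of abundant ones. Over the alternatives its adjusted p ran from 0.0125 to 0.442. snoRNA had rank 4 or 5 of the 15 classes in the supernatants and rank 6 or 7 in the pellets.

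snRNA fragments were the scarcest of the 3 classes in every library of both mappings. Mapped to the human genome, they stood at 7997, 4196 and 3993 RPM in pellets 1, 2 and 3. The supernatants were at 5944, 5055 and 4684 RPM. The pellets thus held both the highest and the lowest values, with all supernatants between pellets 1 and 2. The log2 fold change was -0.024 (standard error 0.30, 95% interval -0.77 to 0.72, limma, adjusted p = 0.940). The interval is wide in both directions, so equal levels are not shown. The sign of this small difference was positive without pellet 2 or 3 or supernatant 1.

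**Figure D2:**
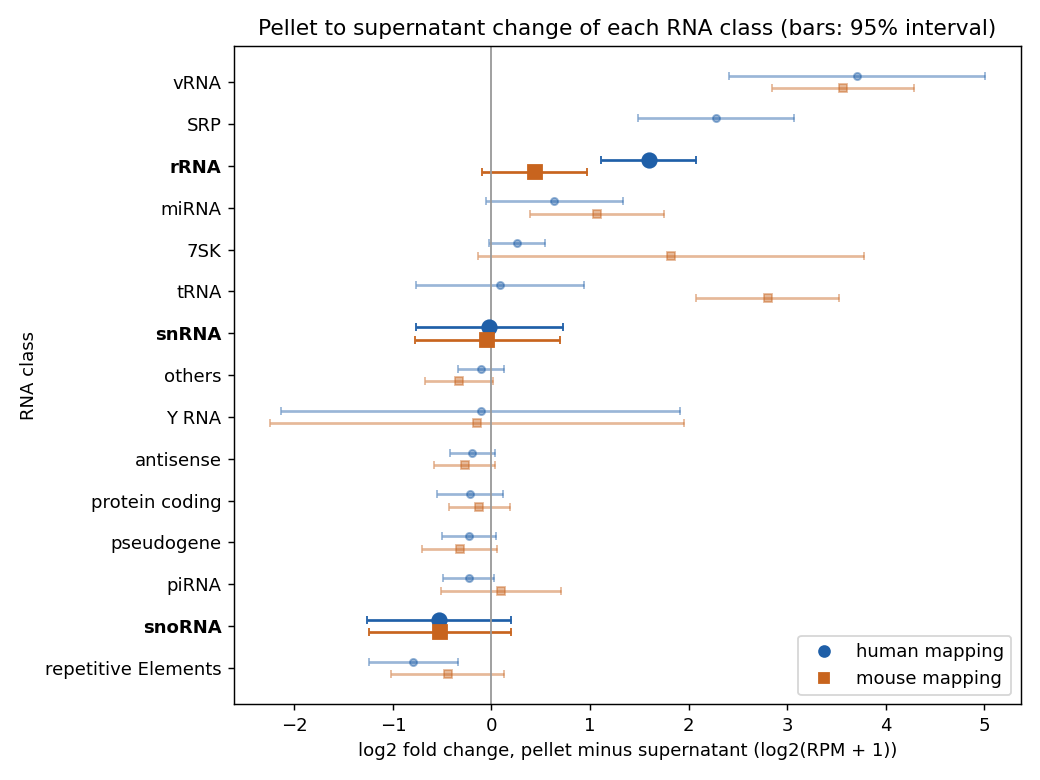
Log2 fold change from supernatant to pellet on the log2(RPM + 1) scale (horizontal axis) of each RNA class (vertical axis, ordered by the human mapping), with circles for the human and squares for the mouse mapping and bars for the 95% interval from limma (3 against 3 libraries). rRNA lies at 1.59 in the human and 0.44 in the mouse mapping, while snoRNA (-0.53 and -0.52) and snRNA (-0.024 and -0.043) have nearly the same estimate in both.

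Ratios between classes of a library do not depend on its total. The rRNA to snoRNA ratio compares reads of rRNA fragments with those of snoRNA fragments, and does not measure whole ribosomes or other intact particles. It was 1.73, 1.71 and 4.34 in pellets 1, 2 and 3 of the human mapping. Supernatants 1, 2 and 3 had ratios of 0.735, 0.413 and 0.507. More rRNA than snoRNA was read in each pellet and less in each supernatant. The ratio was 4.37 times as high in the pellets (log2 difference 2.13, standard error 0.45, 95% interval 1.03 to 3.23, adjusted p = 0.0117 by limma over all 105 pairs of classes, exact permutation p = 0.10). Of these pairs 40 passed (38.1%). Pairs share classes, so these tests are not independent of each other. Their pooled spread counts dependent ratios, so the limma p-values of ratios, within each mapping and between mappings, are too low. Without supernatant 2 the ratio did not pass (1.94, adjusted p = 0.0585). Pellet 3 stood apart from pellets 1 and 2, and without it the log2 difference was 1.68 (adjusted p = 0.000741, with a range of 0.000741 to 0.0585 over the alternatives).

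The rRNA to snRNA ratio was 13.8, 21.9 and 34.3 in pellets 1, 2 and 3 of the human mapping. In supernatants 1, 2 and 3 it was 7.29, 6.48 and 7.59. The supernatants agreed closely, with a coefficient of variation (CV) of 8.07% against 44.1% in the pellets, and no pellet overlapped them. The ratio was 3.07 times as high in the pellets (log2 difference 1.62, standard error 0.35, adjusted p = 0.0129 by limma, exact permutation p = 0.10). It did not pass without supernatant 1 (adjusted p = 0.0520) or supernatant 2 (adjusted p = 0.0634), the highest of the alternatives, which began at 0.00224.

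The snoRNA to snRNA ratio compares fragments of nucleolar RNAs with fragments of spliceosomal RNAs. It was 7.99, 12.8 and 7.89 in pellets 1, 2 and 3 of the human mapping and 9.92, 15.7 and 15.0 in supernatants 1, 2 and 3. Pellet 2 lay above supernatant 1, so the fractions overlapped. The log2 difference of -0.51 (standard error 0.30, 95% interval -1.24 to 0.22) did not pass (limma, adjusted p = 0.227, exact permutation p = 0.20).

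**Figure D3:**
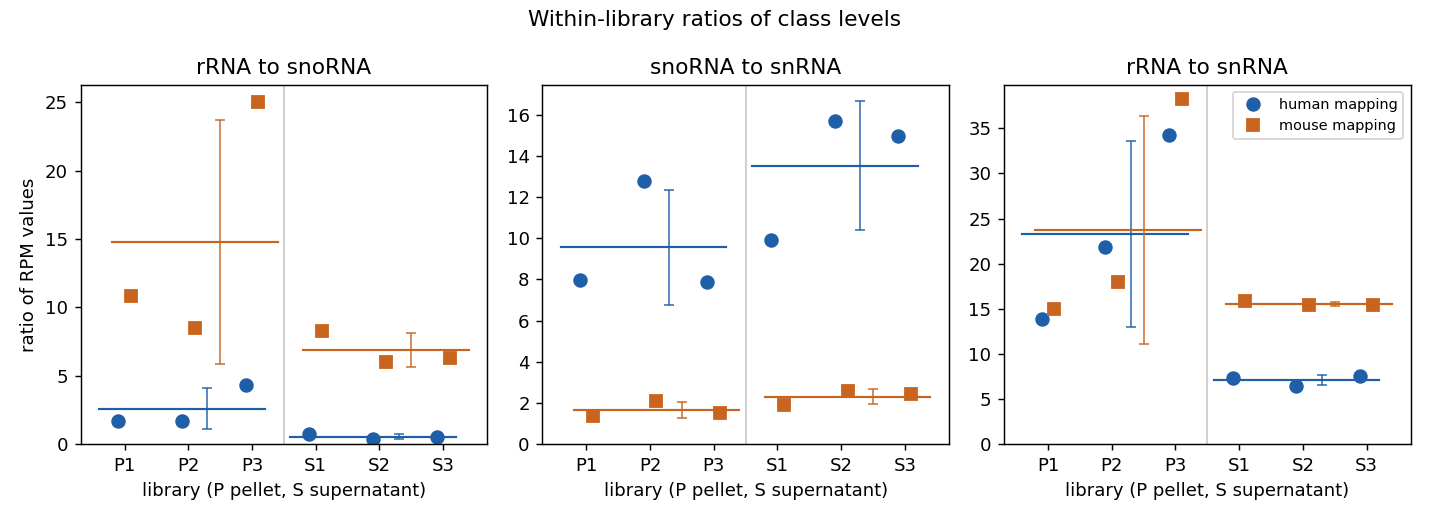
Ratio of RPM values within each library (vertical axis, from 0) for rRNA to snoRNA, snoRNA to snRNA and rRNA to snRNA (P, pellet, S, supernatant), with circles for the human and squares for the mouse mapping, lines for fraction means and bars for the SD (n = 3). Pellet 3 has the highest rRNA to snoRNA ratio of both mappings, 4.34 and 25.04, and the supernatants of the mouse mapping share an rRNA to snRNA ratio of 15.5 to 15.8.

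Against the other 14 classes of the human mapping, rRNA was called higher in the pellets in 10 ratios, lower in 1 (to vault RNA) and did not pass in 3 (to SRP RNA, Y RNA and miRNA). snoRNA was called higher in 0 ratios, lower in 4 and did not pass in 10. snRNA had the same counts of 0, 4 and 10, and for both the 4 partners were SRP RNA, vault RNA, miRNA and rRNA. Against the 38.1% of all pairs that passed, 11 of 14 is a larger share and 4 of 14 a smaller one. The 14 ratios of a class share its values and are part of the 38.1%, so they are not separate results. The 4 partners of snoRNA and snRNA had the highest log2 fold changes of the human classes, from 0.64 (miRNA) to 3.71 (vault RNA). The ratios of snoRNA and snRNA to miRNA were lower in the pellets by -1.17 (adjusted p = 0.0106) and -0.66 (adjusted p = 0.0216) on the log2 scale (limma). Among the other classes, those closest to rRNA in profile over the 6 libraries were SRP RNA (root mean square distance 0.42 of centred log2 values) and miRNA (0.62). Those closest to snoRNA were repetitive elements (0.28) and tRNA (0.39), and those closest to snRNA were tRNA (0.15) and miRNA (0.34). Most of these neighbours changed with the mapping. In the mouse mapping rRNA was nearest to piRNA (0.31) and protein coding RNA (0.39), and snRNA to the class named others (0.33) and snoRNA (0.33), with tRNA only at rank 12 of 13 from snRNA (1.42). Repetitive elements (0.23) were nearest to snoRNA there too, with others (0.25) next.

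In the mouse mapping the contrast in rRNA was smaller. rRNA stood at 159208, 111693 and 186218 RPM in pellets 1, 2 and 3. The supernatants were at 115465, 109585 and 105325 RPM. Pellet 2 fell among the supernatants, while pellets 1 and 3 were above them. The log2 fold change of 0.44 (standard error 0.22, 95% interval -0.095 to 0.97) did not pass (limma, adjusted p = 0.158 over 14 classes, of which 3, or 21.4%, passed). It passed without pellet 2 (0.65, adjusted p = 0.0397) and turned to -0.10 after centring on the mean of log class values (adjusted p = 0.757), and these were the lowest and highest adjusted p of its alternatives.

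snoRNA and snRNA had other levels but similar log2 fold changes in the mouse mapping. snoRNA stood at 14683, 13085 and 7436 RPM in pellets 1, 2 and 3 and at 13886, 18324 and 16615 RPM in supernatants 1, 2 and 3. Its log2 fold change of -0.52 (standard error 0.29) did not pass (limma, adjusted p = 0.178). Without pellet 3 it was -0.22, and with the centring it was lower in the pellets (-1.06, adjusted p = 0.00650, with up to 0.393 under the other alternatives). snRNA stood at 10602, 6232 and 4872 RPM in pellets 1, 2 and 3 and at 7291, 7082 and 6816 RPM in supernatants 1, 2 and 3. Its log2 fold change was -0.043 (standard error 0.30, adjusted p = 0.890).

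The 2 mappings gave rather different amounts of the same classes. By RPM, snoRNA was 4.10 (pellet 2) to 4.35 (pellet 1) times as abundant in the human as in the mouse mapping. These 6 folds lay within 1.06 times of each other, the narrowest range of the 13 classes with a value above 0 in every library of both mappings. The log2 difference was 2.09 (standard error 0.025, limma over 14 classes, adjusted p = 1.81e-08, exact sign-flip test over 6 libraries p = 0.031, the smallest that 6 libraries can give). snRNA was higher in the mouse mapping in 6 of 6 libraries, by 1.22 (pellet 3) to 1.49 times (pellet 2), a human minus mouse log2 difference of -0.43 (standard error 0.053, adjusted p = 0.000544). rRNA was also higher in the mouse mapping in 6 of 6 libraries, with a log2 difference of -0.996 (standard error 0.055, adjusted p = 2.45e-05). Levels differed between the mappings for 12 of 14 classes (85.7%), so a difference as such was common. Both mappings used the same reads, so the 6 libraries are repeats of the mapping over few FBS samples.

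The rRNA difference between mappings depended on the fraction. The mouse mapping gave 1.44, 1.22 and 1.36 times the human rRNA RPM in pellets 1, 2 and 3. In supernatants 1, 2 and 3 it gave 2.66, 3.34 and 2.96 times the human RPM. The pellet to supernatant change was thus larger in the human than in the mouse mapping by 1.16 on the log2 scale (standard error 0.11, limma, adjusted p = 0.000634). For 3 of 14 classes (21.4%) the change differed between mappings. For snoRNA the difference of the changes was -0.012 (95% interval -0.14 to 0.11, adjusted p = 0.861) and for snRNA 0.019 (95% interval -0.25 to 0.28, adjusted p = 0.861).

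**Figure D4:**
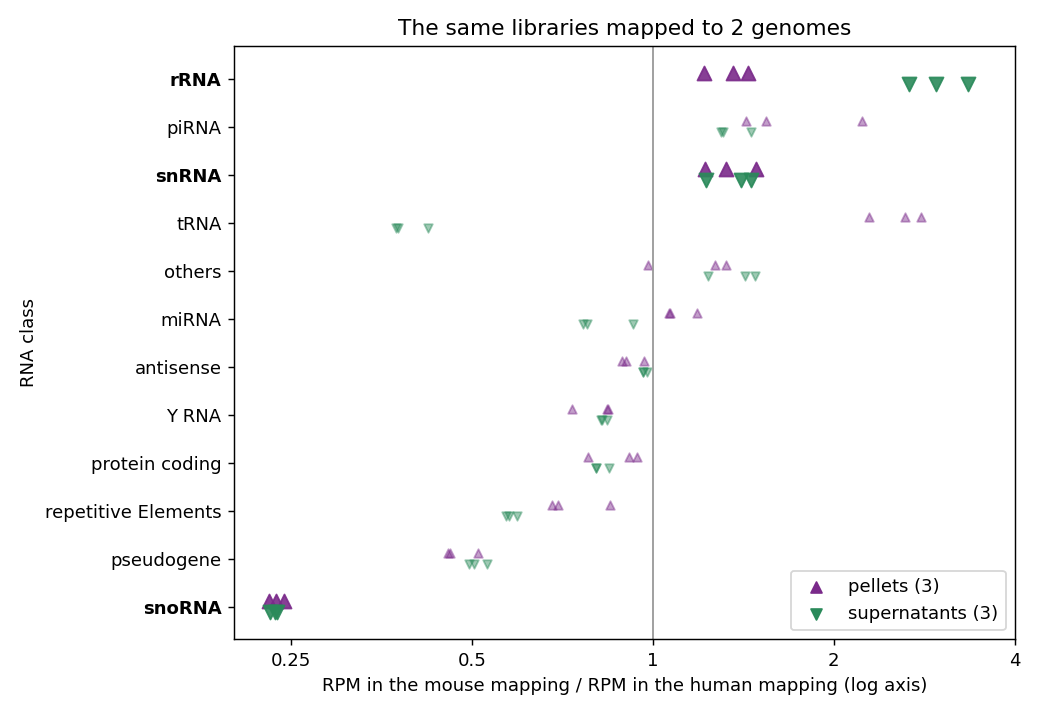
RPM in the mouse mapping divided by RPM in the human mapping (horizontal log axis) for each RNA class with values above 0 in every library (vertical axis, 7SK left out as its folds exceed the axis), with upward triangles for the 3 pellets and downward triangles for the 3 supernatants. snoRNA lies at 0.230 to 0.244 in all libraries, snRNA at 1.22 to 1.49, and rRNA at 1.22 to 1.44 in the pellets and 2.66 to 3.34 in the supernatants.

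Counted as estimated reads, the mouse mapping took more rRNA and fewer snoRNA reads from every library. In supernatant 1, 232859 reads were rRNA by the human and 690430 by the mouse mapping. The supernatants gained between 197% (supernatant 1) and 277% (supernatant 2) of rRNA reads and the pellets between 27.2% (pellet 2) and 58.5% (pellet 1). The loss of snoRNA reads was 73.6% to 74.0% in the supernatants and 74.0% to 74.7% in the pellets. In pellet 1, for example, 425406 snoRNA reads became 107771. snRNA reads increased by 34.3% (pellet 3) to 62.1% (supernatant 3). Which class the other mapping gave to a read was not analysed here.

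The ratios of the classes therefore differed between the mappings. In the mouse mapping rRNA outnumbered snoRNA in each library, with ratios of 10.8, 8.54 and 25.04 in pellets 1, 2 and 3. The ratios of supernatants 1, 2 and 3 were 8.32, 5.98 and 6.34. The lowest pellet was just above the highest supernatant, and the log2 difference of 0.96 (standard error 0.45, 95% interval -0.12 to 2.04) did not pass (limma, adjusted p = 0.152 over 91 pairs, of which 34.1% passed, exact permutation p = 0.10). Without pellet 3 it was 0.50 (adjusted p = 0.160). The rRNA to snoRNA ratio was 8.47 times as high in the mouse as in the human mapping (log2 difference -3.08, standard error 0.071, adjusted p = 1.41e-06, 89% of pairs differing). Its pellet to supernatant difference was larger in the human mapping by 1.17 (standard error 0.14, adjusted p = 0.00211, 33% of pairs differing).

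The rRNA to snRNA ratio of the mouse mapping was 15.0, 17.9 and 38.2 in pellets 1, 2 and 3. In supernatants 1, 2 and 3 it was 15.8, 15.5 and 15.5, with a CV of 1.38%. Pellet 1 lay just below the supernatants and pellet 3 far above them. The log2 difference of 0.48 (standard error 0.39) did not pass (limma, adjusted p = 0.410, exact permutation p = 0.40). Without pellet 3 it was 0.074 (adjusted p = 0.816). Against the human mapping the pellet to supernatant difference was smaller by 1.14 on the log2 scale (standard error 0.15, adjusted p = 0.00269).

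The snoRNA to snRNA ratio of the mouse mapping was 1.38, 2.10 and 1.53 in pellets 1, 2 and 3 and 1.90, 2.59 and 2.44 in supernatants 1, 2 and 3. Its log2 difference of -0.48 (standard error 0.27, adjusted p = 0.237 by limma) was close to that of the human mapping, with a difference between mappings of -0.031 (95% interval -0.32 to 0.26). The ratio itself was 5.73 times as high in the human mapping (log2 difference 2.52, standard error 0.058, adjusted p = 1.41e-06). Against the other 13 classes of the mouse mapping, rRNA was called higher in the pellets in 0 ratios and lower in 2, to vault RNA and tRNA. snoRNA was called lower in 4 ratios, to 7SK RNA, vault RNA, miRNA and tRNA, and snRNA in 3, to vault RNA, miRNA and tRNA, with 0 higher for both. As shares of 13, these counts of 2, 4 and 3 all lie below the 34.1% of all mouse pairs that passed. The 13 ratios of a class share its values and are part of the 34.1%, so they are not separate results.

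The 3 classes also varied among the pellets. Pellet 3 had the most rRNA and the least snoRNA and snRNA of the pellets in both mappings, and pellet 1 the most snoRNA and snRNA. The pellet CVs of the human mapping were 20.1% for rRNA, 33.3% for snoRNA and 41.8% for snRNA, against a median of 20.1% over all classes. The supernatant CVs were 14.7%, 14.7% and 12.4%, against a median of 6.49%. In the mouse mapping the supernatant CVs of rRNA and snRNA were 4.62% and 3.37%, against 13.8% for snoRNA. Pellet 3 was also the shallowest library, and the part of its depth in these values was not tested.

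Some miRNAs lie within longer RNAs of these classes, and the miRNA tables give them apart. Of 9 such miRNA numbers looked for, 3 had a value above 0 in the human mapping. miR-1246, which matches a stretch of U2 snRNA, stood at 17633, 13267 and 6946 RPM in pellets 1, 2 and 3 and at 15082, 19230 and 18360 RPM in supernatants 1, 2 and 3. It took more reads than the whole snRNA class in each library, 1.74 (pellet 3) to 3.92 (supernatant 3) times as many. This ratio was 1.46 times lower in the pellets, and the fractions overlapped (exact permutation p = 0.20). Per mapped read its log2 fold change was -0.57 (standard error 0.37, limma over 153 miRNAs, of which 47.7% passed, adjusted p = 0.208). The snoRNA-derived miR-664a-3p was at 1.95 RPM in pellet 1 and miR-1291 at 1.15 RPM in pellet 3 and 0.186 RPM in supernatant 1, with both listed at 0 elsewhere. Each of the 2 miR-1291 values equals the estimated value of 1 read in its library. Reads named as these snoRNA-derived miRNAs were thus a tiny part beside the snoRNA class.

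In level over the libraries miR-1246 followed the snoRNA class more closely than the snRNA class. The miR-1246 to snoRNA ratio was 0.276, 0.247 and 0.220 in pellets 1, 2 and 3 and 0.256, 0.242 and 0.262 in supernatants 1, 2 and 3. It ranged 1.25-fold over the libraries, against 2.25-fold for the ratio to snRNA and 11.6-fold for that to rRNA. Of 153 miRNAs miR-1246 was nearest to snoRNA in centred log2 profile, at a root mean square distance of 0.10, with 0.53 for the next, miR-541-5p, and a median of 1.45. To snRNA it was second, at 0.42, after miR-320c at 0.41. This comparison was made after the values were seen, over 6 libraries that share their totals, and carries no test. The snRNA reads gained in the mouse mapping equalled 14.4% (supernatant 1) to 20.9% (pellet 1) of the reads that miR-1246 held in the human mapping. These are sizes only, and whether any of them are the same reads was not tested.

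**Figure D5:**
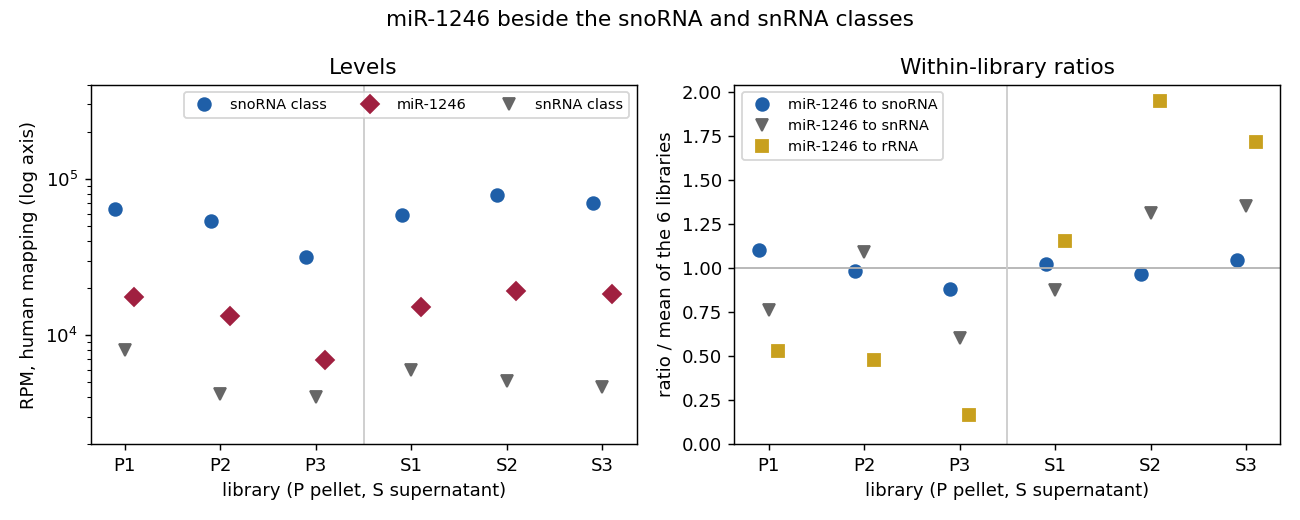
Left, RPM in the human mapping (log axis) of the snoRNA class (circles), miR-1246 (diamonds) and the snRNA class (triangles) in each library (P, pellet, S, supernatant). Right, the ratio of miR-1246 to snoRNA (circles), snRNA (triangles) and rRNA (squares) in each library, divided by its mean over the 6 libraries (axis from 0), where the ratio to snoRNA stays nearest to its mean.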

How the data were processed

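The authors deposited RPM values, reads scaled to the mapped reads of each library without pooling, in 4 tables of RNA classes and of miRNAs. Reads were mapped to hg19 with the exceRpt small RNA-seq pipeline. The submitters' processing notes name mm10 for the mouse tables. Their pipeline is not given in the sources used. SRP RNA was analysed in the human mapping alone.

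log2(RPM + 1) was fitted with limma 3.58.1 in R 4.3.3 over all classes, all pairs of classes, or all miRNAs that reached 1 RPM in 3 or more libraries (with a variance trend), unpaired as in the study's methods, two-sided, with Benjamini-Hochberg adjustment at 0.05. The mappings were compared on the human minus mouse difference of each library. The added 1 RPM shrinks the fold changes of rare classes. Exact permutation and sign-flip tests were run in Python 3.11.15 (numpy 2.4.6, scipy 1.17.1, matplotlib 3.10.9). The same fits were run on simulated data with independent noise and planted log2 changes of 2. The noise had 1 SD for all classes (0.25 human, 0.35 mouse, log2 scale) and no fixed total, unlike these data. In that setting the fits called 100% of the changed classes, and 1.82% (human) and 1% (mouse) of the unchanged ones. These rates may not hold for classes of unequal spread. The planted changes exceed the level changes of the 3 classes between fractions, so the simulations do not show the power for smaller ones.

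For an estimate of mapped reads, the smallest value that 6 or more miRNAs of a library share was taken as 1 read. Within 0.02 reads, 35.6% to 60.0% of miRNA values were whole, so no count model was used.

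Named are the 3 classes, the 2 classes nearest to each in centred log2 profile, and miRNAs within snRNA, snoRNA or rRNA transcripts (miR-1246, miR-664, miR-1291, miR-1248, miR-3651, miR-3653, miR-3648, miR-3687 and miR-712). Other classes and miRNAs were named after their values were seen. Members, lists and tests were chosen with earlier results of these data known.

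Same-numbered pellets and supernatants deviated together in the human mapping, with correlations over 15 classes of 0.40, 0.37 and 0.73 for numbers 1, 2 and 3. The labels do not say what a number shares. The study states that 3 batches were spun and both fractions sequenced, but ties no library number to a batch. A pairing by number is thus not settled, and the main tests were unpaired. The study speaks of batches and of aliquots of FBS, so the p-values reflect the spread of these libraries alone, part of which may be technical.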

Additional observations from a re-analysis of the deposited data

Results flagged for a closer look

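The pellet to supernatant change of rRNA differed between the human and the mouse mapping of the same libraries, by 1.16 on the log2 scale (limma, adjusted p = 0.000634). The rRNA to snoRNA and rRNA to snRNA ratios differed between the mappings in the same way, by 1.17 (adjusted p = 0.00211) and 1.14 (adjusted p = 0.00269). All 3 rest on the same rRNA values and are 1 pattern. Effects of the genome and of the class annotation on it cannot be told apart. Every supernatant gained more rRNA in the mouse mapping, in relative terms, than any pellet. Fractions hold 3 libraries each, so single libraries were not tested as outliers.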

How the results depend on the processing

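Of 350 recomputed values, 317 kept their direction and their side of the threshold (counts, within 1.5 times). Under the replicate block rRNA kept a log2 fold change of 1.59 (adjusted p = 0.00389) in the human mapping, and the block changed no call of the 3 classes or their ratios. With the block 34 of the human ratios passed in place of 40, and 24 ratio changes differed between mappings in place of 30. In the mouse mapping same-numbered libraries correlated at 0.46, 0.0040 and -0.067. Both mappings hold the same libraries, so a pairing cannot hold in only 1 of them, and these correlations do not settle it. The main tests were unpaired in both mappings, and 31 mouse ratios passed with the block as without. With centring on the mean log class value, 8 human and 7 mouse classes passed, snoRNA stood at -0.94 and -1.06, and mouse rRNA at -0.10. Rescaled without rRNA, snRNA turned to 0.095 (human) and 0.028 (mouse), and without the class miRNA to 0.032 and 0.041. Among classes of at least 1000 RPM, with fewer classes tested, 2 human classes, 11 human ratios and 18 mouse ratios passed. The number of classes whose change differed between mappings was 5 with a pseudocount of 10 RPM and 6 on estimated reads, where the snoRNA difference was 0.035. Leaving out 1 library at a time, log2 values ran from -0.35 to 0.16 for human and -0.36 to 0.20 for mouse snRNA, -0.75 to -0.24 for human and -0.71 to -0.22 for mouse snoRNA, 0.28 to 0.65 for mouse rRNA, 1.68 to 2.36 for the human rRNA to snoRNA, 1.29 to 1.95 for the human rRNA to snRNA, 0.50 to 1.28 for the mouse rRNA to snoRNA and 0.074 to 0.75 for the mouse rRNA to snRNA ratio. Between mappings they ran from -0.032 to 0.0096 for the change of snoRNA, -0.048 to 0.094 for that of snRNA and -0.11 to 0.034 for that of the snoRNA to snRNA ratio. Mouse classes called ran from 2 to 5 (5 without pellet 3), and classes differing between mappings from 2 to 6 (6 without pellet 3). Apart from counts of fewer classes, the cause of these changes was not tested. Counting error was below the SD between libraries for each of the 3 classes in the human mapping.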
